A study of Mus musculus with 9 samples.

Results

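The anterior neural homeobox and POU genes are 10 transcription factor genes of the early brain and eye: Otx1, Otx2, Six3, Lhx2, Hesx1, Rax, Pou3f1, Pou3f2, Pou3f3 and Pou3f4. They were taken by name, 10 of 21887 mouse protein-coding genes. A ChIP-seq peak was counted at a protein-coding gene when its summit lay inside the gene body. A summit outside all protein-coding genes was counted at the nearest of them within 100 kb, whether or not it lay in a non-coding gene. The peaks came from ChIP with an antibody to TWIST1, a bHLH transcription factor of mesenchyme and neural crest, in mouse embryonic stem cells (strain C57BL/6) differentiated for 3 days. The overexpressing cells (OE, genotype Twist1-OE) were Twist1-/- cells of the A2loxcre line with an inducible cassette for Flag-Twist1. The control cells (KO, genotype Twist1-KO) were Twist1-/- without the cassette, and both received doxycycline for 16 h, so neither group holds wild-type cells and the TWIST1 mapped here was the induced, tagged protein. The lists came from 4 OE ChIP libraries, 2 KO ChIP libraries (numbered 2 and 3) and 1 KO input, and input libraries of the OE cells (2) were not used here. The labels name the cells embryoid bodies and the design text neuroepithelium, and peak lists hold no expression from which markers of either could be checked.

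Otx2 and Otx1 encode paired-type homeodomain factors of the fore- and midbrain. Six3, Rax, Lhx2 and Hesx1 encode homeodomain factors of the anterior neural plate, where Rax, Six3 and Lhx2 are needed to form the eye and Hesx1 to form the forebrain and pituitary. Pou3f1 to Pou3f4 are the class III POU genes, whose proteins bind DNA through a POU-specific domain and a homeodomain and act in neural progenitors and neurons. TWIST1 binds DNA as a dimer at E-boxes, sites of the form CANNTG.

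The peak lists differed in length and in the background under their peaks. They held 14078 to 106750 peaks on the main chromosomes in the OE libraries, 94 and 62 in KO libraries 2 and 3 and 1642 in the KO input. By the Poisson test of MACS2, the fold enrichment and p-value of a peak together give the number of fragments stacked at its summit and the background under it. The fold was assumed to be a ratio with 1 added to both counts, and depth itself was not given. OE libraries 1 and 4 most often had a background of 1.00 and 1.20 fragments, against 5.38 and 5.29 for OE libraries 2 and 3. For KO libraries 2 and 3 it was 4.73 and 5.09. At that background a peak needed a fold of 4.00 or 4.09 to enter the lists with low background (OE 1 and 4), but only 2.51 or 2.54 to enter those of OE 2 and 3. Twist1 itself had 1, 4, 5 and 1 peaks in OE libraries 1 to 4 and none in the KO lists, where cassette and endogenous sequence cannot be told apart.

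Peaks were listed at every one of the 10 genes in OE libraries 2 and 3 and at none in the KO ChIP libraries. Together the 10 genes had 31, 126, 106 and 17 peaks in OE libraries 1 to 4, 0 and 0 in KO libraries 2 and 3, and 1 in the KO input. OE library 1 had a peak at 8 of the 10 genes and OE library 4 at 6, against 47.3% and 37.4% of all genes. OE libraries 2 and 3 reached 80.6% and 77.5% of all genes, so a peak at each of the 10 is close to what those long lists gave elsewhere. KO ChIP peaks were rare everywhere, at 0.21% and 0.0959% of all genes, and KO input peaks lay at 5.29%.

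**Figure D1:**
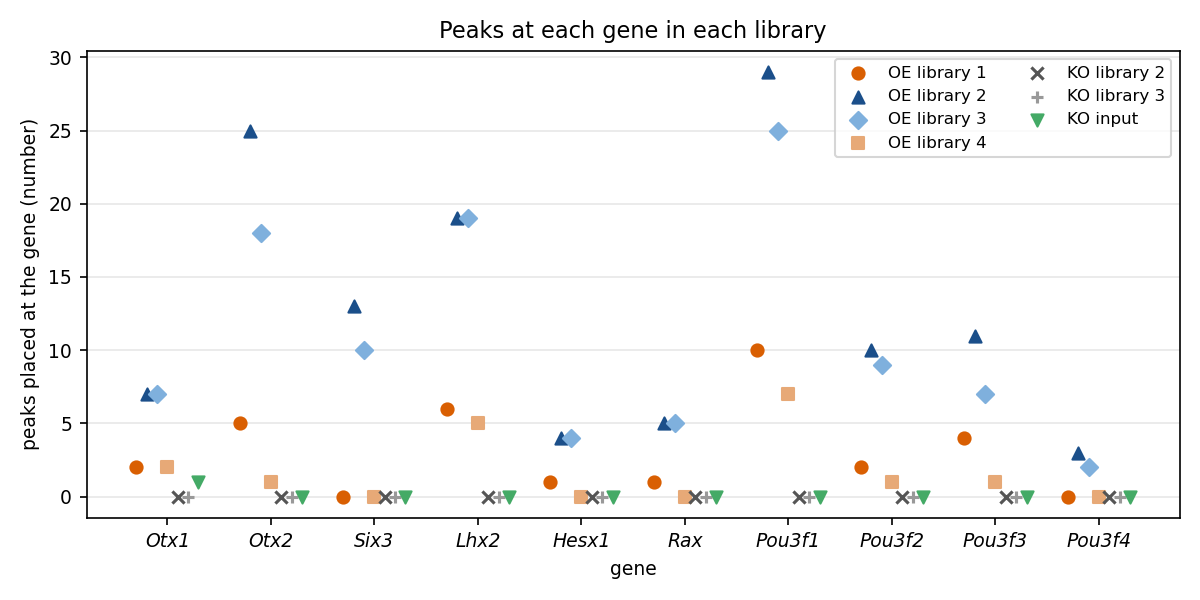
Number of peaks placed at each gene (y axis) for the 10 genes (x axis), with 1 point for each library. OE libraries 2 and 3 lie highest at every gene, up to 29 peaks at Pou3f1, and both KO ChIP libraries lie at 0 throughout.

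Pou3f1, a POU gene of early neural commitment and later of Schwann cells, carried the most peaks, with 10, 29, 25 and 7 in OE libraries 1 to 4. Lhx2 followed with 6, 19, 19 and 5. At both genes the lowest OE library was still above the KO libraries. Otx2 had 5, 25, 18 and 1 peaks and Otx1 had 2, 7, 7 and 2. Pou3f3 had 4, 11, 7 and 1 and Pou3f2 had 2, 10, 9 and 1. At these 4 genes too the groups did not overlap, although OE library 4 held a single peak at Otx2, Pou3f2 and Pou3f3. Hesx1 had 1, 4, 4 and 0 peaks and Rax 1, 5, 5 and 0, so OE library 4 did not differ from the KO libraries there. Six3 had 0, 13, 10 and 0 and Pou3f4 had 0, 3, 2 and 0, and all of their peaks came from OE libraries 2 and 3. In all, 6 of the 10 genes had a peak in every OE library and in no KO ChIP library, against 34.9% of all genes.

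The difference between OE and KO in mean log2(peaks + 1) was largest at Pou3f1 (4.02) and Lhx2 (3.51) and smallest at Pou3f4 (0.90). Its median over the 10 genes was 2.32, beside 1.04 over all protein-coding genes. When every summit within 100 kb of a gene counted, the median was 2.81, near the 2.76 over all genes. A two-sided exact permutation test, with 15 ways to label 4 of the 6 ChIP libraries OE, gave its smallest possible value, p = 0.0667, at Otx1, Lhx2, Pou3f1 and Pou3f3, and 0.133 to 0.467 at the other 6 genes. After Benjamini-Hochberg adjustment over all genes the exact permutation p-values were 0.351 to 0.622, and 0% of genes passed 0.05, adjusted or not, since the design cannot reach it. With each OE list cut to the length of the shortest, the median difference was 0.82, beside 0 over all genes. It was then 0 at Six3 and Pou3f4 and 0.25 at Hesx1 and Rax, against 3.16 at Pou3f1, 2.37 at Lhx2 and 2.20 at Otx2. The order also depended on the annotation: with non-coding genes counted as well, the difference at Pou3f1 was 1.15, and Lhx2 was highest with 3.18, followed by Otx1 with 2.24.

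Per length of genome, the 10 genes combined held more peaks than genes did on average. A gene's territory is the stretch whose positions would be placed at it, and the territories of the 10 genes came to 1139.9 kb, from 36.8 kb at Rax, which has close neighbours, to 204.8 kb at Pou3f4. Over these territories the density was 2.72, 11.1, 9.30 and 1.49 peaks per 100 kb in OE libraries 1 to 4. Over all genes it was 1.05, 5.01, 4.17 and 0.672, a ratio of 2.60, 2.20, 2.23 and 2.22 in the 4 libraries. Pou3f1 was the densest in every OE library, with 8.94, 25.9, 22.4 and 6.26 peaks per 100 kb. Lhx2 had 5.29, 16.7, 16.7 and 4.41. Pou3f4 was the sparsest, with 0, 1.46, 0.977 and 0, below the density of all genes in each library. At Pou3f3 the 2.22 and 6.11 of OE libraries 1 and 2 lay above it and the 3.89 and 0.556 of OE libraries 3 and 4 below it. In OE library 4, 6 of the 10 genes lay below the density of all genes, Otx2 with 0.629 and Six3, Hesx1 and Rax with 0 among them, and Pou3f1 and Lhx2 held 12 of the 17 peaks. The genes thus ranged from several times the density of all genes to well under it.

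**Figure D2:**
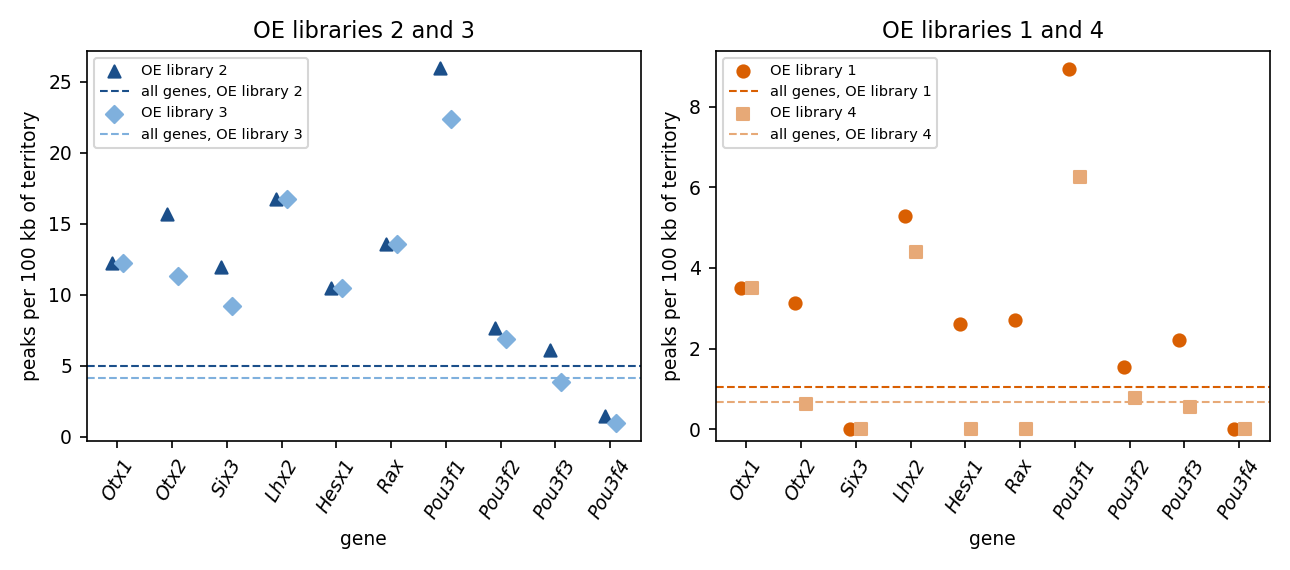
Peaks per 100 kb of territory (y axis) at the 10 genes (x axis), OE libraries 2 and 3 on the left and 1 and 4 on the right. Dashed lines give the density over all protein-coding genes in the same library (5.01 and 4.17 on the left, 1.05 and 0.672 on the right). Pou3f1 is the highest and Pou3f4 lies under the lines.

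OE peaks sharing at least 1 bp were merged, which gave 135 regions at the 10 genes. Merging joins overlapping peaks in a chain, so the libraries of a region need not all share a base. A region is called reproducible here when each of the 4 OE libraries had a peak in it and it touched no peak of the KO ChIP or KO input lists. There were 11 such regions of 10375 in all, and 5 of the 10 genes had at least 1, against 30.3% of all genes: Lhx2 and Pou3f1 with 4 each and Otx1, Otx2 and Pou3f2 with 1 each. Of the other merged regions 12 came from 3 OE libraries, 67 from 2 and 44 from 1. Of the 67 seen in 2 libraries, 64 were shared by OE libraries 2 and 3. Six3, Hesx1, Rax, Pou3f3 and Pou3f4 had no reproducible region. A region's distance to its gene is that of the median summit of its libraries. In 4 of the 11 reproducible regions every summit lay within 100 bp of that median. Without OE replicate 4, 8 of the 10 genes had a region in the other 3 libraries, 21 regions in all, against 40.8% of all genes. With OE libraries 2 and 3 alone, an alternative chosen after seeing the data, all 10 genes had one, 87 regions in all, against 74.4%. With only libraries 1 and 4 kept, also chosen after seeing the data, 6 genes had one, 13 regions in all, against 33.4%.

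**Figure D3:**
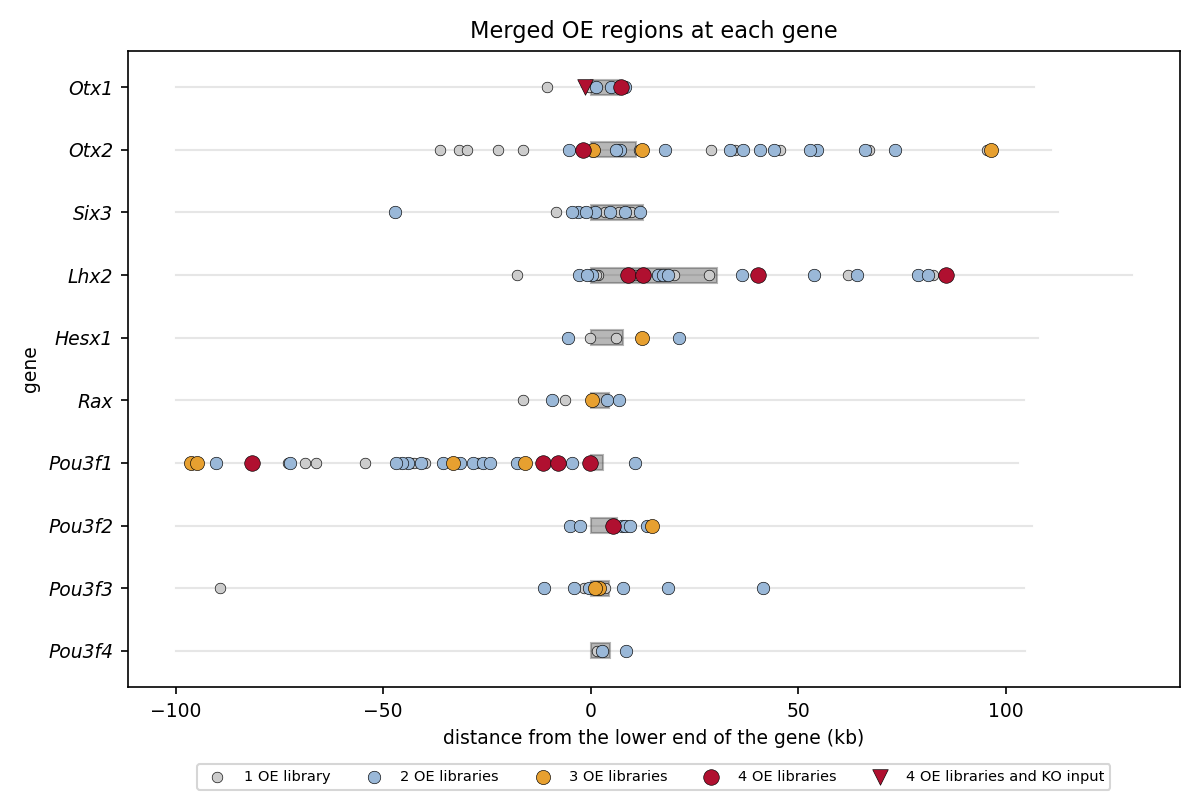
Summits of the 135 merged OE regions along the 10 genes (y axis), as distance in kb from the lower end of each gene (x axis). Grey boxes are gene bodies, and colour gives the number of OE libraries. Regions of all 4 libraries sit at 5 genes, and the triangle at Otx1 is the region shared with the KO input.

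Lhx2 (chromosome 2, 38339271 to 38369737, mm10) held the highest-ranked of the 11 regions, inside the gene at 38347742 to 38349219, with its summit at -2901 bp from the nearest annotated start site. Its best peak had folds over local background, as the authors' caller gave them here and throughout, of 40.4, 31.8, 28.3 and 34.96 in OE libraries 1 to 4, a mean of 33.9 ± 5.15 (SD, n = 4). At the summits 80, 202, 177 and 76 fragments were stacked. Within each list its fold stood at the 94.2nd, 96.5th, 95.8th and 94.2nd percentile, the most even placing among the 11. A long non-coding gene, Gm27197, also covers this position. The neighbouring region at 38350406 to 38352691 spans the internal start site at 38351308 and had folds of 25.5, 7.52, 8.26 and 14.1. A pair of regions lay beyond the gene. At 38378019 to 38380389, 9929 bp away, the folds were 8.98, 25.9, 30.7 and 7.26, and at 38423551 to 38425991, 55208 bp away, they were 21.5, 43.4, 37.7 and 10.4. Both outer regions stood higher in OE libraries 2 and 3 in fold and in percentile. At the internal start site the folds were higher in libraries 1 and 4, but the percentiles were 86.6, 72.6, 75.4 and 69.96, with library 4 the lowest.

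Start-site windows of 250 bases are shown for 1 window overlapped by peaks in all OE libraries (Lhx2). Also shown are windows overlapped in OE libraries 2 and 3 (Pou3f2 and Otx2) and 1 overlapped in none (Hesx1). The other Lhx2 window was overlapped in OE libraries 1 and 4 alone, and the other Otx2 windows in none. The Hesx1 start site used lies inside the gene. Outside its window, an OE library 2 peak with a fold of 4.23 had its summit 316 bp after that start site. An OE library 3 peak had its summit 63 bp outside the gene's lower end. The windows hold the bases just before the annotated start site on the gene's strand, with every CANNTG in capitals. They are from RefSeq (GRCm38.p6, whose main chromosomes have mm10 coordinates). Overlap was scored on the whole annotated window, which also takes in 50 bases after the start.
Lhx2, internal start site, chr2:38351058-38351307, plus strand: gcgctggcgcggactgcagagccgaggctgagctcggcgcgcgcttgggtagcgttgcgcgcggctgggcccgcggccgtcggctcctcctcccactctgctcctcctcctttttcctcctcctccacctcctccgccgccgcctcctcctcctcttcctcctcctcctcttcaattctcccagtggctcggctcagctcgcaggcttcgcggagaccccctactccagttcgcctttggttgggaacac
Pou3f2, chr4:22488367-22488616, minus strand: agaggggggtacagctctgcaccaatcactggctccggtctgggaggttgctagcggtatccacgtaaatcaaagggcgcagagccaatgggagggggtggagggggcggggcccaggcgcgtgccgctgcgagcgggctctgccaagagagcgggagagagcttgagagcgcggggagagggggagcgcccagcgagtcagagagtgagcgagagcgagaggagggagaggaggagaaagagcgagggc
Otx2, innermost start site, chr14:48662735-48662984, minus strand: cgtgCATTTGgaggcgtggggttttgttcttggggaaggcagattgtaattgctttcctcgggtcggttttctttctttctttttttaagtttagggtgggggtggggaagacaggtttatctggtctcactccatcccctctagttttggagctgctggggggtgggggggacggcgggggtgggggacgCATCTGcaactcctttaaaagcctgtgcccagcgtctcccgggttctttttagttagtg
Hesx1, chr14:27000112-27000361, plus strand: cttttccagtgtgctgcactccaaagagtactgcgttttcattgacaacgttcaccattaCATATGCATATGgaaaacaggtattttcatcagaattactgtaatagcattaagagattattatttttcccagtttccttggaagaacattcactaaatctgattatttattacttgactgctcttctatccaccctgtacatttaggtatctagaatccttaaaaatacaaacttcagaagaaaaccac

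The Lhx2 and Pou3f2 windows held no CANNTG, with 68.4% and 66.8% G or C against a median of 55.6% over all windows. The Otx2 window held CATTTG, 246 bases before the start, and CATCTG, 59 bases before it. The Hesx1 window held CATATG at 190 and at 184 bases before the start, back to back, and no peak of any library overlapped it. CANNTG reads the same on both strands, and 62.8% of the 21263 windows of protein-coding genes held at least 1. CATCTG or its reverse complement CAGATG occurred in 12.4% of windows and CATATG in 2.91%. Of the 11 windows matched, which belong to 7 of the 10 genes, 4 held a CANNTG, and none held a pair with starts 11 bases apart, which 0.569% of all windows did. Lhx2 was the only 1 of these 7 genes with a window overlapped in every OE library and in no KO list, against 12.8% of genes with a window. Otx1, Rax and Pou3f1 had no window and could not be scored. At Otx1 and Pou3f1 a reproducible region spans an end of the gene.

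Pou3f1 (chromosome 4, 124657646 to 124660655) lay between a stretch of 720648 bp without a coding gene on its lower side and Utp11 17576 bp above it. All 4 of its reproducible regions lay on the lower side. The strongest, at 124647777 to 124650786, 7804 bp away, had folds of 33.4, 117, 80.3 and 20.9, the highest of the 11 regions in OE libraries 2 and 3 and the next after Lhx2's in libraries 1 and 4. Summits of the 4 libraries lay within 46 bp of each other there. The region that spans the lower-coordinate end of the gene, 124656434 to 124659151 with its median summit 152 bp outside, had folds of 23.5, 7.05, 8.26 and 18.6. The region 11488 bp away, 124644737 to 124647188, had 13.97, 30.9, 34.01 and 9.08. Summits of the libraries were spread over 708 bp in the former and 1132 bp in the latter. The region 81575 bp away, 124575552 to 124576674, had 17.0, 8.46, 6.83 and 7.26, with OE library 1 apart from the other three. A long non-coding gene, Gm2164, covers or lies nearest to all 4 of these regions, so with non-coding genes counted Pou3f1 itself received 0. Pou3f1 also had 4 regions in 3 OE libraries, among them 124641254 to 124642378, which was absent from OE library 1 and had folds of 42.3, 31.8 and 5.45 in libraries 2 to 4.

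Otx2 (chromosome 14, 48656781 to 48667644) had 27 merged regions, of which 1, at 48653115 to 48655988, past the 3′ end of the gene by 1843 bp, was in all 4 OE libraries. Its folds were 11.5, 24.0, 28.9 and 6.36, with 22, 152, 181 and 13 fragments at the summits. OE library 4 was the lowest there, at the 20.7th percentile of its list, whereas OE libraries 2 and 3 placed the region at the 94.8th and 95.9th. A further region, 48668756 to 48669693, lay 1587 bp before the outermost start site and had folds of 7.99, 18.2 and 19.7 in OE libraries 1 to 3 and no peak in library 4. Far upstream, peaks of OE libraries 2 and 3 alone had folds of 21.6 and 15.3 at 62602 bp before the gene, and 15.2 and 18.6 at 55217 bp.

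Otx1 (chromosome 11, 21994764 to 22001651) had the weakest reproducible region of the 11, at 22000837 to 22002408. Its median summit lay 399 bp outside the gene, with the summits of the libraries spread over 723 bp. The folds were 6.99, 5.64, 4.93 and 6.81. The 4 values lay close together, a mean of 6.09 ± 0.980 (SD, n = 4). At the other end of the gene, 21993114 to 21993780 was also found in all 4 OE libraries, with folds of 8.48, 2.82, 2.86 and 13.2, but a KO input peak with a fold of 3.89 overlapped it and it was left out. Input DNA is chromatin without antibody, so a peak there needs no TWIST1.

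Pou3f2 (chromosome 4, 22482095 to 22488366) had its reproducible region inside the gene at 22486688 to 22488883, with folds of 14.5, 7.37, 8.90 and 15.0. Its median summit lay 818 bp after the start site, but the summits of the libraries were spread over 1014 bp. Pou3f3 (chromosome 1, 42695768 to 42700210) had a peak in every OE library but no merged region with a peak of each. At 42696422 to 42696999 its folds were 11.5, 2.98 and 3.34 in OE libraries 1 to 3, and at 42697340 to 42698336 they were 8.48, 3.29 and 6.81 in OE libraries 1, 2 and 4. Pou3f4 (chromosome X, 110814379 to 110819108), a gene of inner ear and brain development, had 3 merged regions. Its leading region lay 3837 bp away with folds of 8.15 (OE library 2) and 7.79 (OE library 3).

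Six3, Rax and Hesx1, factors of the eye field and pituitary, had 14, 6 and 5 merged regions, and no OE library 4 peak in any of them. In OE libraries 2 and 3 they lay above the density of all genes, with 11.99 and 9.23 peaks per 100 kb at Six3, 13.6 and 13.6 at Rax and 10.5 and 10.5 at Hesx1. At Rax (chromosome 18, 65934639 to 65939089) the region in most libraries, 65934799 to 65935400 inside the gene, showed folds of 4.49, 3.29 and 3.81 (OE libraries 1 to 3). A Rax region of higher fold, 65924347 to 65925921 and 9351 bp away, was in OE libraries 2 and 3 alone, at 7.84 and 17.5, the 74.3rd and 91.8th percentile of those lists. At Hesx1 (chromosome 14, 26994419 to 27002329) it was 27006586 to 27006991, 4527 bp away, with folds of 9.48, 5.49 and 3.34. At Six3 (chromosome 17, 85613608 to 85626191) no region was in more than 2 libraries. The region that led it, 85566225 to 85566591, 47218 bp away, had folds of 8.15 (OE library 2) and 6.52 (OE library 3). OE libraries 1 and 4, in which Six3 and Pou3f4 had no peak, were those with the higher fold needed for listing, and the part of depth in this was not tested.

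The order of the 11 regions differed between the libraries. In OE libraries 1 and 4 the region of highest fold was that inside Lhx2, and in OE libraries 2 and 3 it was that 7804 bp from Pou3f1. All 6 regions more than 1 kb outside their gene stood at a higher mean percentile in OE libraries 2 and 3 than in 1 and 4, by 10.9 to 56.9 points. The 5 regions inside or within 1 kb of their gene differed by -10.4 to 23.9 points. A like difference by position was present over all reproducible regions. Of the 11 regions, 8 lay farther than 1 kb from any gene end and differed by a median of 24.0 points, beside 27.5 for all 7168 such regions. The 3 nearer ones differed by a median of 3.38 points, beside -7.02 for all 3207. Libraries 1 and 4 are alike in background and so are 2 and 3, and the part of background in this order was not tested.

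**Figure D4:**
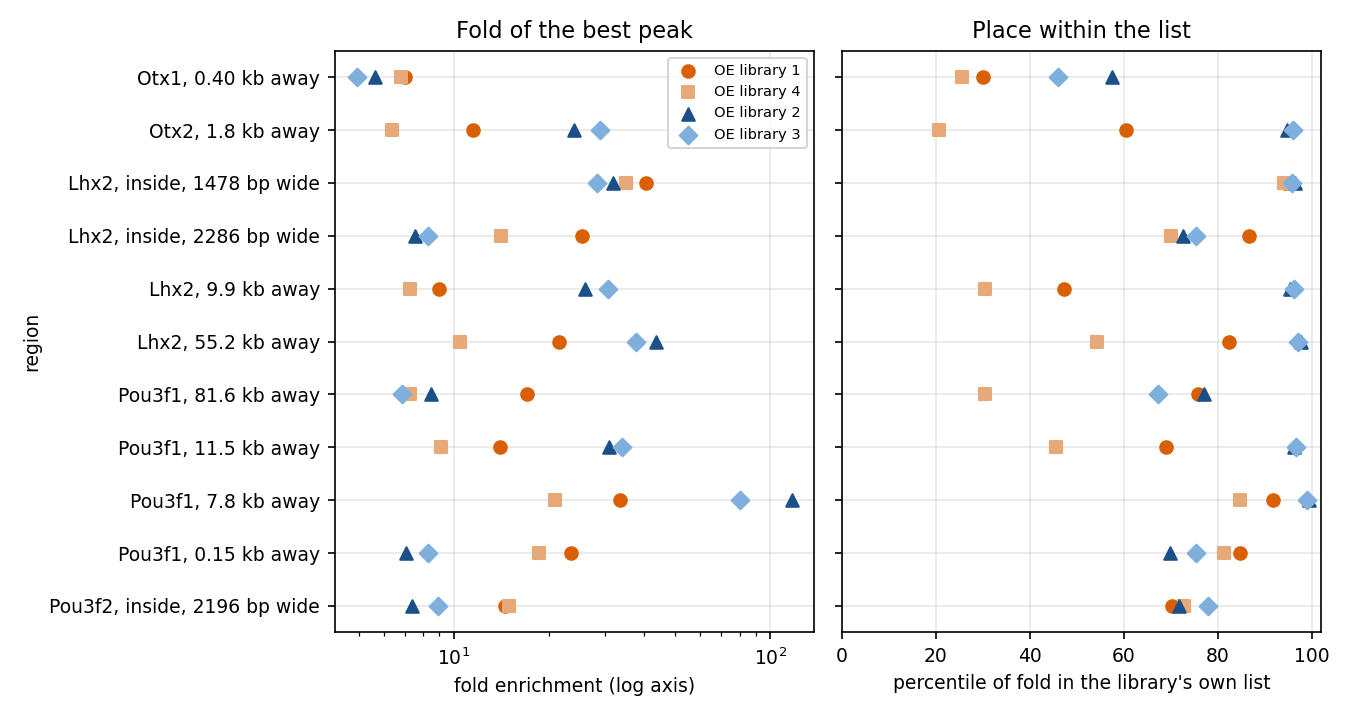
The 11 reproducible regions (y axis, named by gene and distance) with the fold enrichment of the best peak on a log axis (left) and its percentile in the library's own list (right), 1 point for each OE library. Points of OE libraries 2 and 3 lie right of those of 1 and 4 in both panels at the regions 9929 and 55208 bp from Lhx2, 7804 and 11488 bp from Pou3f1 and 1843 bp from Otx2. In fold they lie left of them at the Pou3f1 region 152 bp away, inside Pou3f2, at both regions inside Lhx2 and at Otx1.

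As a set, the 11 regions were wider than the rest, with a median of 2371 bp against 1135 bp, and stood at a median mean percentile of 76.1 against 71.5. Their median folds were 17.0, 24.0, 28.3 and 10.4 in OE libraries 1 to 4, beside 15.5, 16.1, 15.1 and 10.9 over all reproducible regions. Each of the 11 exceeded, in OE libraries 2 and 3, the fold of 3.66 and 3.61 needed for listing in KO libraries 2 and 3 at their background, the lowest being 5.64 and 4.93 at Otx1. At that background, weaker enrichment in the KO libraries would not have been listed. Those folds are no limit for the whole KO lists, whose peaks had a median fold of 3.51 and 2.88 in libraries 2 and 3.

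In lists of related genes the share with a reproducible region ran from 33.3% to 72.7%, beside 50% of the 10 genes and 30.3% of all genes. It was 12 of 20 other anterior neural genes, 8 of 11 other LIM homeobox genes, 5 of 11 other POU genes and 2 of 6 further relatives of Otx1 and Six3, and 3 genes stand in more than 1 of these lists. The median difference in log2(peaks + 1) between OE and KO was 2.23, 2.04, 1.80 and 1.74 in these lists, and 2.32 in the 10 genes. A KO ChIP peak lay at 1 gene of these lists, Nkx2-1, named after its values were seen.

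The 100 kb limit set which peaks were counted. Just inside it, the region 96365 bp from Pou3f1 had folds of 7.99, 30.1 and 17.3 in OE libraries 1 to 3. Just outside it, a region 100066 bp from Pou3f2 had folds of 10.2 (OE library 2) and 5.88 (OE library 3), and 1 at 111948 bp from Otx2 had 16.5, 11.1, 6.84 and 13.2 in all 4.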

How the data were processed

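Each library was deposited as its own list of peaks, made per the submitters' processing notes with Trimmomatic, BWA, Picard and MACS2 on mm10 (GRCm38.p5 is also named). Their versions and settings, and the control, were not stated in those sources, and the choice of control can change which peaks are listed. The fold is the authors' linear ratio over local background, and the authors' caller also gave −log10 of p and of q, with q at most 0.01. The deposited score column entered no result. Read totals are not given, so the background pileup was solved from fold and p (at least 94.0% of up to 1000 peaks a library). Intervals for counting error need read totals and are not given.

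Peaks on the 21 main chromosomes were placed by summit with scipy 1.17.1 and numpy 2.4.6 under Python 3.11.15, using 21887 coding genes of a RefSeq table of GRCm38.p6, and drawn with matplotlib 3.10.9. Exons and genome sequence were not used here, so start-site windows replaced the planned motif search at summits. Regions were placed by the median of the best summits of the libraries in them. All 10 genes were named by rule, each with its leading region. Members, lists and tests were chosen with earlier results of these data known. The steps were tested on simulated data. The permutation p-values reflect only how much these libraries vary, which may be technical in part. Alternatives covered limits on q and p, distance, gene types, list length, overlap, libraries required and leaving out each replicate.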

Additional observations from a re-analysis of the deposited data

Results flagged for a closer look

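In 21 sets of 4 OE values (peaks at each gene and folds of each reproducible region), 1 had a library far from the others by Dixon's criterion. At the region 81575 bp from Pou3f1, OE library 1 had a fold of 17.0, and the others had 6.83, 7.26 and 8.46. Chance sets apart about 1 in 20 such sets.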

How the results depend on the processing

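Neither KO ChIP list held a peak at the 10 genes, so stricter limits or fewer libraries could not make any difference negative. The median difference in log2(peaks + 1) between OE and KO stayed positive under each alternative run, so its sign is no check. It was 0.82 with OE lists cut to the shortest list, 1.51 with non-coding genes included, 1.56 at −log10 q of at least 10, 2.81 when every summit within 100 kb counted (2.76 over all genes, so near it), 5.625 as mean counts without log2, and 2.01 to 2.66 leaving out each library. Pairing libraries 2 and 3 by replicate number (replicate block) gave a median of 3.34, and 10 genes with more OE than KO peaks in both pairs. With no KO peak at these genes, that count restates that OE libraries 2 and 3 had a peak at each. Those libraries had a peak at 80.6% and 77.5% of all genes, so the count is near that share. Over 21887 genes the deviations of same-numbered libraries correlated at 0.011 and -0.0076. KO libraries 2 and 3 had a peak at only 46 and 21 genes, so nearly all their values were 0. The correlation therefore cannot tell whether replicate numbers pair the libraries. Genes with a peak in every OE and no KO ChIP library numbered 4 at −log10 q of at least 10 (26.4% of all genes) and 4 with OE lists cut (19.9%). They numbered 8 when every summit within 100 kb counted, near the share of all genes (74.2%). Leaving out each library gave 6 to 8 (34.9% to 45.9%), the highest without OE library 4 (45.9%). Genes with a reproducible region numbered 3 (7 regions, 21.7% of all genes) at −log10 q of at least 10, 3 (6 regions, 15.8%) with OE lists cut, and 2 (4 regions, 19.1%) with summits within 100 bp, where 2 of 10 is near that share. They numbered 8 (23 regions, 43.2%) with at least 3 libraries, 10 (90 regions, 75.0%) with at least 2, and 8 (23 regions, 68.8%) when every region within 100 kb counted. With non-coding genes counted, 4 of the 10 genes had one, beside 16.6% of genes of all types. There were then 6 regions, since non-coding genes took the others. OE libraries 2 and 3 alone gave 10 genes (87 regions, 74.4%). Leaving out each OE library gave 5 to 8 genes (30.7% to 40.8% of all genes) and 11 to 21 regions. The highest of each was without OE library 4. For the other changes the cause was not tested.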

Other observations

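Beyond 100 kb, more merged OE regions had Pou3f1 as their nearest coding gene. Between 100 kb and 1000 kb there were 38 such regions, of which 3 were reproducible. Pou3f2, Pou3f3 and Pou3f4 had 13, 12 and 4 such regions, none of them reproducible. Otx2 had 1, which was reproducible, and the other 5 genes had 0.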
